A study of Mus musculus with 6 samples.

Results

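The genes described here encode cell-autonomous antiviral proteins that are made in response to interferon. They are the IFIT genes Ifit1, Ifit2 and Ifit3, the IFITM genes Ifitm1, Ifitm2 and Ifitm3, the myxovirus resistance genes Mx1 and Mx2, Rsad2, which encodes viperin, and Bst2, which encodes tetherin. They were chosen by name, as 10 symbols from these families, and 8 of the 10 were found among the 18268 genes of the deposited table. Other IFIT and IFITM genes are described below as relatives and are not among the 10. Mx1 and Mx2 were not analysed here. All 8 genes passed the filter on low values.

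Bulk RNA sequencing had been performed on colorectal tissue of C57BL/6 mice in which colitis was induced by DSS, dextran sulfate sodium, which damages the epithelium of the gut. All mice received DSS for 7 days. For 6 days they were also gavaged with berberine (BBR), a plant alkaloid, or with the aminosalicylate drug sulfasalazine (SASP), with 3 samples in each group. According to the methods of the study the mice were adult males. Healthy mice and colitis mice without a drug were not analysed here, so each difference is between the drugs and does not show which drug moved a gene. The labels do not say that the samples of a group came from separate mice, so the p-values measure the spread between these samples.

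Interferons bind receptors on the cell surface and activate the JAK kinases. Type I and type III interferons lead to ISGF3, a complex with STAT2 and IRF9 that binds the interferon-stimulated response element (ISRE), while interferon gamma acts through the gamma-activated site (GAS). IFIT proteins bind viral RNA or translation factors, IFITM proteins sit in membranes and hinder virus entry, viperin makes an antiviral nucleotide, and tetherin holds budding virus at the cell surface. In the colon these genes are expressed in the epithelium as well as in immune cells.

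Sequences before the gene starts are shown first because these genes are known for sharing the ISRE. They were taken from RefSeq (GRCm38.p6), where a window of 300 bases was given around each start, 250 before it and 50 after it. The submitters' notes name another build, mm9, so these positions belong to the sequences only. The ISRE core searched was GAAA, any 2 bases and GAAA again, on both strands, so that on the other strand it reads TTTC, any 2 bases and TTTC. Matches are in capitals, 5′ to 3′ on the strand of the gene. The sequence of Ifit1 (chr19:34640744-34640888, plus strand) is the 145 bases that separate its start from 1 of the starts of Ifit1bl2, which is transcribed in the opposite direction. The other sequences are the 250 bases before Ifit3 (chr19:34583279-34583528, plus strand), Rsad2 (chr12:26456453-26456702, minus strand), Bst2 (chr8:71537473-71537722, minus strand) and Ifitm2 (chr7:140955962-140956211, minus strand).
Ifit1: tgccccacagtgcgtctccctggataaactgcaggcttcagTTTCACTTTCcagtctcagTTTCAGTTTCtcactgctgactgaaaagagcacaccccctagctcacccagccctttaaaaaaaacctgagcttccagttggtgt
Ifit3: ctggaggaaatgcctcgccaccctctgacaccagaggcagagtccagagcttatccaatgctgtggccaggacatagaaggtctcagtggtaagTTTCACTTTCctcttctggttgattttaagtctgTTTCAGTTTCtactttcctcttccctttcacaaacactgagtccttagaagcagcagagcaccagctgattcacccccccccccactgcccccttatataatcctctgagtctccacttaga
Rsad2: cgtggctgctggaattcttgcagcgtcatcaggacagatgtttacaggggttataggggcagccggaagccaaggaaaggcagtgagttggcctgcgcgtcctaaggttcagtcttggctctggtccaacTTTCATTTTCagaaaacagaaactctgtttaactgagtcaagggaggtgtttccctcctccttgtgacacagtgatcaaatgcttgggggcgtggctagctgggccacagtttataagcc
Bst2: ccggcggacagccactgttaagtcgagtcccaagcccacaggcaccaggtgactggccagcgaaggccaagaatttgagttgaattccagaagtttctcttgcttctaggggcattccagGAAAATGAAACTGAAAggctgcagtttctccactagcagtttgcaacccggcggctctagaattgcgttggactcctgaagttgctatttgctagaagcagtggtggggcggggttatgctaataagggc
Ifitm2: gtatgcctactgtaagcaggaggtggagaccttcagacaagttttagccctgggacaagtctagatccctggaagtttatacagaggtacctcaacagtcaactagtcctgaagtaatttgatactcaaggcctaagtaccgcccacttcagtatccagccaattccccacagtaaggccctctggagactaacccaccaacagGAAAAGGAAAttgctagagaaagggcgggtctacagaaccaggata

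An ISRE core was present in the windows of 6 of the 8 genes, against 3.44% of all 32851 RefSeq windows of this length. The share counts single windows and not genes, of which there were 27025, so the units differ for genes with more than 1 window. Ifit1 and Ifit3 held 2 cores each. The 2 cores of Bst2 overlapped by 4 bases, and Rsad2 and Ifitm2 held 1 each. The 2 cores of Ifitm3 lay after its start, at bases 3 to 12 and 20 to 29. No core was found in the window of Ifitm1 or in either window of Ifit2. The GAS core TTCNNNGAA, which reads the same on both strands, was present in 8.3% of all windows. Of these genes it was in a window of Ifit2, Bst2 and Ifitm3, and in Bst2 and Ifitm3 it overlapped an ISRE core by 3 bases. A match is only a description of letters, and no binding was measured.

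**Figure D1:**
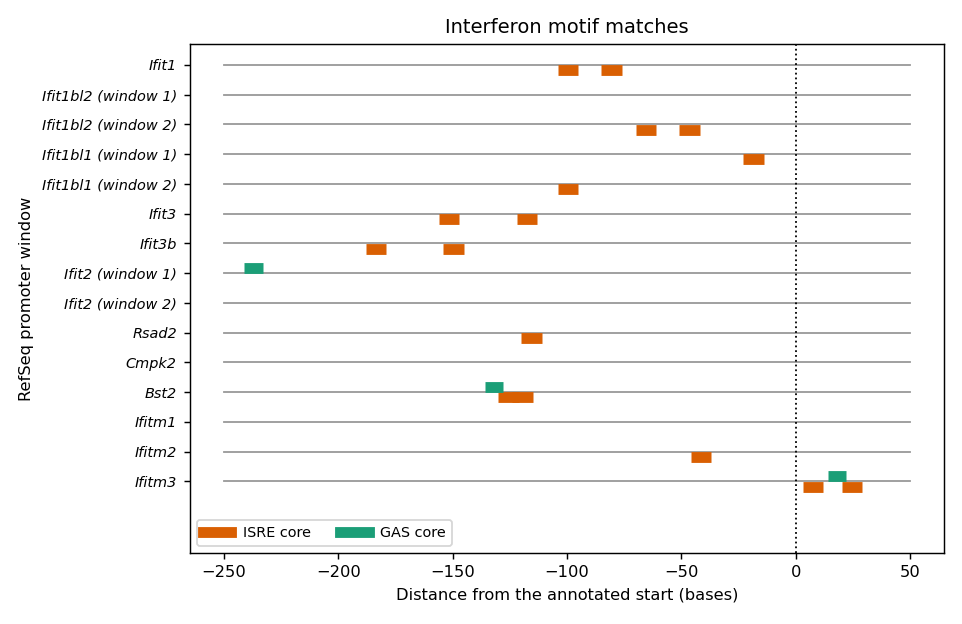
Position of ISRE and GAS core matches in RefSeq promoter windows, with the distance in bases from the annotated start on the x axis and 1 line per window. Matches of Ifit1 and Ifit3 lie before the start, those of Ifitm3 after it, and Ifitm1, Cmpk2 and 1 window each of Ifit2 and Ifit1bl2 have none.

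Expression was given in FPKM (fragments mapped to a transcript, scaled by its length and by the total number of mapped fragments), and fold changes were computed on log2(FPKM + 1), which understates changes of low values. Fits were made with limma over 12072 genes, and a gene was called at a Benjamini-Hochberg adjusted p under 0.05. Of 12 colon epithelium markers, summing to 9795 to 12182 FPKM under BBR and to 9617 to 9862 FPKM under SASP, 1 was called as lower under BBR (Vil1, -0.55) and 2 as higher (Cdx2, 1.5, and Phgr1, 0.70). Krt20 (-1.18) and Car1 (2.48) were not called. The samples had an estimated 17.4 to 19.3 M reads. The lowest value of each of the 8 genes rested on approximately 84.4 reads (Ifit3, 2.86 FPKM in BBR 1) or more. The lowest FPKM, 1.94 for Ifit1 in BBR 2, rested on approximately 89.8 reads. BBR 3 stood apart from its group, as it correlated with BBR 1 and BBR 2 at 0.953 and 0.949 across genes, while BBR 1 and BBR 2 correlated at 0.987. Smooth muscle markers were higher under BBR (summed level 2782 to 6598 FPKM, against 706 to 2217 FPKM under SASP). Of these, 0 of 7 were called in limma, and the groups did not overlap in 6 of the 7. Over all tested genes 8.86% were called, and every BBR sample lay above every SASP sample in 21.3%. Endothelial markers were higher as well (14.5 to 28.1 FPKM against 7.46 to 10.5 FPKM), with 1 of 5 called, Emcn. Their part in the results was not tested. In bulk tissue, fewer cells of a type and less RNA per cell cannot be told apart.

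Of the 8 genes, 5 were lower under BBR than under SASP at an adjusted p under 0.05 in limma, and 0 were higher. They were Ifit1, Ifit2, Ifit3, Rsad2 and Bst2. Among all tested genes 8.86% were called, 5.04% as lower and 3.82% as higher. The median log2 fold change of the 8 genes was -1.49, and that of all tested genes was 0.10. In the 5 called genes every BBR sample lay below every SASP sample, which held for 16.6% of all tested genes. In 21.3% of all tested genes every BBR sample lay above, so that the groups did not overlap in 37.9%. The 3 IFITM genes were not called, and their groups overlapped.

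**Figure D2:**
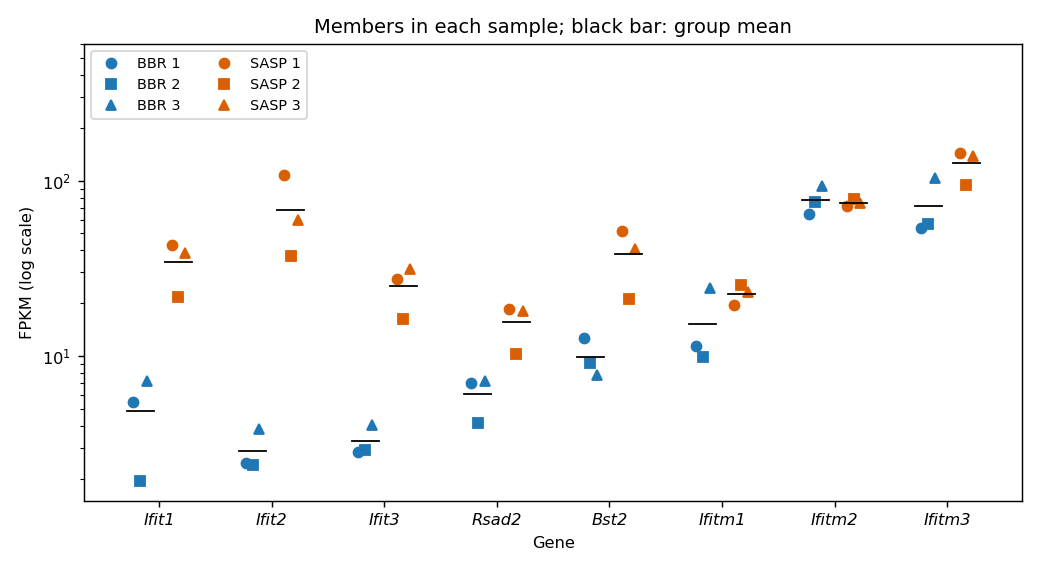
FPKM of each gene in each sample on a log axis, with BBR in blue, SASP in orange, 1 symbol per replicate and a black bar at the group mean. The groups are apart in Ifit1, Ifit2, Ifit3, Rsad2 and Bst2, and BBR 3 is the highest BBR sample in all genes except Bst2.

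Ifit2 showed the largest difference of the 8 genes. Its protein binds AU-rich RNA and is also linked to apoptosis. Ifit2 (Gene ID 15958) was at 2.45, 2.39 and 3.84 FPKM in BBR 1 to 3 and at 107, 37.2 and 59.3 FPKM in SASP 1 to 3. Even the lowest SASP sample exceeded the highest BBR sample 9.69-fold. The log2 fold change was -4.04 (SE 0.36, 95% interval -4.90 to -3.18, limma adjusted p = 0.00355), the 17th most negative among all tested genes. The mean under SASP was 23.5 times that under BBR.

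Ifit1, which recognises viral RNA that lacks methylation of its cap, was lower in all BBR samples but varied within them. Ifit1 (15957) was at 5.47, 1.94 and 7.24 FPKM under BBR and at 43.2, 21.7 and 38.5 FPKM under SASP. The fold change was -2.66 on the log2 scale (SE 0.42, 95% interval -3.65 to -1.67, limma adjusted p = 0.0186). When single samples were left out, it ranged from -2.97 (without BBR 3) to -2.22 (without BBR 2). The call was lost without BBR 1 (-2.79, adjusted p = 0.0624), without SASP 1 (-2.47, 0.0916) and without SASP 3 (-2.55, 0.0900).

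Ifit3, whose human counterpart pairs with IFIT1, was by its own FPKM the least variable of the IFIT genes under BBR. The split of reads between Ifit3 and Ifit3b is uncertain, as described below. Under BBR the SD was 20.8% of the mean for Ifit3 and 58.1% for the sum of both. Ifit3 (15959) was at 2.86, 2.92 and 4.07 FPKM under BBR and at 27.5, 16.2 and 31.2 FPKM under SASP. Its log2 fold change was -2.56 (SE 0.25, 95% interval -3.16 to -1.97, limma adjusted p = 0.00509). Ifit2 and Ifit3 were called in all 6 fits that left out 1 sample and under every other setting tried. The sum of Ifit3 and Ifit3b was called in 2 of these 6 fits. Within the trio, Ifit2 made up 46.0% to 60.3% of the summed FPKM in SASP samples and 22.7% to 33.0% in BBR samples. These shares depend on the same split of reads.

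**Figure D3:**
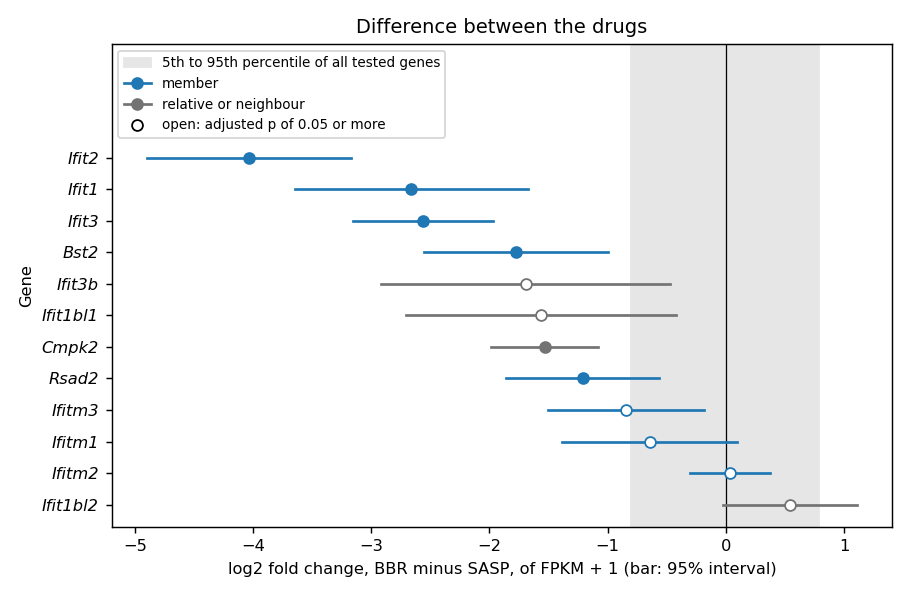
Log2 fold change of BBR against SASP with its 95% interval for the 8 genes (blue) and for 4 relatives or neighbours (grey), beside the range from the 5th to the 95th percentile of all tested genes (grey band). Filled points passed an adjusted p of 0.05, and the points of Ifit1, Ifit2, Ifit3, Bst2, Rsad2 and, narrowly, Ifitm3 lie below the band, as do those of Ifit3b, Ifit1bl1 and Cmpk2.

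Rsad2 and Bst2 were also lower under BBR than under SASP, by less. Viperin converts CTP into a chain terminator of viral RNA synthesis. Rsad2 (58185) was at 7.04, 4.15 and 7.18 FPKM under BBR and at 18.5, 10.3 and 18.1 FPKM under SASP, so the groups were apart by only 1.43-fold between their nearest samples. The log2 fold change was -1.21 (SE 0.27, 95% interval -1.86 to -0.57, limma adjusted p = 0.0430). This call was lost with no filter on low values (adjusted p = 0.0724), and without BBR 1 (-1.32, 0.0883), BBR 2 (-0.99, 0.0992), SASP 1 (-1.08, 0.167) or SASP 3 (-1.09, 0.149). The kinase gene Cmpk2, which lies next to Rsad2 and makes the CTP that viperin uses, was at 4.17, 3.69 and 3.72 FPKM under BBR and at 15.2, 9.53 and 15.2 FPKM under SASP. Its log2 fold change was -1.53 (SE 0.19, limma adjusted p = 0.00999), with the call lost without SASP 1 (-1.43, 0.0586) or SASP 3 (-1.43, 0.0640).

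Bst2 (69550) was at 12.6, 9.15 and 7.85 FPKM under BBR and at 51.9, 21.1 and 41.0 FPKM under SASP. It was the 1 gene of the 8 in which BBR 3 was the lowest BBR sample. The log2 fold change was -1.77 (SE 0.33, 95% interval -2.55 to -0.997, limma adjusted p = 0.0266). The call was lost without BBR 1 (-1.95, 0.0685), BBR 2 (-1.74, 0.0774), SASP 1 (-1.51, 0.106) or SASP 3 (-1.68, 0.110). Bst2 is also a surface marker of plasmacytoid dendritic cells in mice, so their markers are given beside it. Siglech, a defining marker, was at 0.31, 0.65 and 0.08 FPKM under BBR and at 0.32, 0.05 and 0.19 FPKM under SASP, and Ccr9 was at most 0.20 FPKM in all samples. Of the 8 markers listed, 4 passed the filter, and Irf8 and Ly6d were called as lower under BBR. The summed level of the list, nearly all of it Klk1, was 919 to 1117 FPKM under BBR and 731 to 903 FPKM under SASP. Pan-leukocyte markers summed to 24.6 to 41.1 FPKM under BBR and to 39.8 to 87.5 FPKM under SASP, with 0 of 8 called. Their part in the result was not tested.

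The IFITM genes were not called in the fit with equal weight for all samples, and BBR 3 lay within the SASP range or above it in all 3. Ifitm3, which restricts viruses that enter through endosomes, had the highest mean of the 8 genes under SASP. Ifitm3 (66141) was at 54.0, 56.3 and 104 FPKM under BBR and at 143, 94.9 and 137 FPKM under SASP. BBR 1 and BBR 2 lay below all SASP samples, while BBR 3 lay above SASP 2. With all samples the log2 fold change was -0.85 (SE 0.28, 95% interval -1.51 to -0.18, limma adjusted p = 0.0946). Ifitm3 was called as lower without BBR 3 (-1.15, adjusted p = 0.00819) and with array weights (-1.25, 0.000198). Array weights weight each sample by how well it fits its group. Many genes were called under these settings: 33.8% of all tested genes without BBR 3 and 59.0% with array weights, against 8.86% in the main fit. The same shares stand beside every call under these settings given below.

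Ifitm1 acts mainly at the plasma membrane, and here too BBR 3 lay apart from BBR 1 and BBR 2. Ifitm1 (68713) was at 11.4, 9.92 and 24.6 FPKM under BBR and at 19.6, 25.3 and 23.3 FPKM under SASP. The log2 fold change was -0.64 (SE 0.31, 95% interval -1.38 to 0.10, limma adjusted p = 0.202), and it was called without BBR 3 (-1.02, 0.00441) and with array weights (-0.96, 0.000320). Ifitm2 (80876) was at 64.3, 75.6 and 92.7 FPKM under BBR and at 71.6, 78.5 and 74.5 FPKM under SASP. Its log2 fold change was 0.04 (SE 0.14, 95% interval -0.30 to 0.38, limma adjusted p = 0.876), below 0 with median-ratio scaling (-0.10), with array weights (-0.18) and without BBR 3 (-0.10). Whether the change differed between the IFIT and IFITM genes was not tested.

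BBR 3 was the highest of the BBR samples in 7 of the 8 genes. Markers of more than 1 cell type were highest in the same sample among the BBR samples. This held for every smooth muscle marker listed, among them Actg2 at 629, 406 and 1620 FPKM in BBR 1 to 3. It also held for most neutrophil markers. S100a8 was listed at 0, 0 and 6.19 FPKM in BBR 1 to 3 and at 18.5, 20.6 and 23.1 FPKM in SASP 1 to 3, and Csf3r was at 0.60, 0.58 and 1.72 FPKM and at 1.59, 1.62 and 1.90 FPKM. Of the 7 neutrophil markers listed, 5 passed the filter and 1, S100a8, was called. Their summed level, most of it Ly6g, was 192 to 567 FPKM under BBR and 357 to 536 FPKM under SASP, and Mpo was at most 0.02 FPKM. Most pan-leukocyte and endothelial markers listed went the other way and were lowest in BBR 3 among the BBR samples. Ptprc was at 2.25, 3.32 and 1.84 FPKM in BBR 1 to 3, and Pecam1 at 7.71, 14.2 and 6.26 FPKM. The part of all these markers in the level of the IFITM genes was not tested. Within SASP samples, SASP 2 was the lowest in 6 of the 8 genes.

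**Figure D4:**
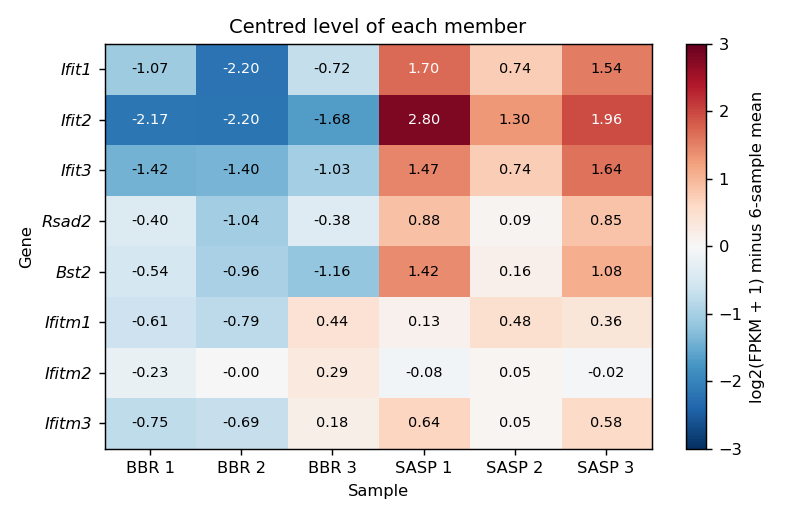
Level of each gene in each sample as log2(FPKM + 1) minus its mean over the 6 samples, red above and blue below that mean. Ifit1, Ifit2, Ifit3, Rsad2 and Bst2 are below their mean in all BBR samples, whereas Ifitm1, Ifitm2 and Ifitm3 are above it in BBR 3.

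FPKM is scaled by transcript length, so levels of different genes can be ordered. The places of Ifit3 and Ifitm2 rest in part on how reads shared with other genes were divided, as described below. Under BBR the order of mean levels was Ifitm2 (77.6 FPKM), Ifitm3 (71.3), Ifitm1 (15.3), Bst2 (9.88), Rsad2 (6.12), Ifit1 (4.88), Ifit3 (3.28) and Ifit2 (2.89). The samples of neighbours in this order overlapped, except between Ifitm3 and Ifitm1 and between Bst2 and Rsad2. Under SASP the order was Ifitm3 (125 FPKM), Ifitm2 (74.8), Ifit2 (68.0), Bst2 (38.0), Ifit1 (34.4), Ifit3 (25.0), Ifitm1 (22.7) and Rsad2 (15.6). Here the exceptions were Ifitm3 and Ifitm2, and Ifitm1 and Rsad2. By its mean Ifit2 was the lowest of the 8 under BBR and the third highest under SASP, but its samples overlapped those of its neighbours in both orders.

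Close relatives were examined because RSEM divides reads that match several genes. The longest coding GENCODE M21 transcript of each gene was cut into overlapping windows of 50 bases, the read length in the study's methods, which do not list the SASP samples. The labels name another library kit, Illumina TruSeq, and no read length, so these shares hold only if 50-base reads were used. Of the windows of Ifit3, 51.2% also occurred in Ifit3b, so the split of reads between this pair is uncertain. Ifit3b was at 4.13, 1.42 and 9.70 FPKM under BBR and at 14.8, 11.4 and 21.9 FPKM under SASP (log2 fold change -1.69, limma adjusted p = 0.0798). It was called without BBR 3 (-2.23, 0.00936) and with array weights (-2.08, 0.000469). The sum of Ifit3 and Ifit3b, which still depends on the split in so far as the 2 transcripts differ in length (1745 and 2000 bases), was 8.37 ± 4.86 FPKM under BBR and 41.0 ± 12.8 FPKM under SASP (SD, n = 3 each). Its log2 fold change was -2.24 (limma adjusted p = 0.0238), and the call was lost without BBR 1 (-2.19, 0.0752), BBR 2 (-1.90, 0.0502), SASP 1 (-2.20, 0.111) or SASP 3 (-2.04, 0.0994).

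For Ifit1, 7.13% of the windows were shared with another gene, mostly with Ifit1bl2. Its relative Ifit1bl1 was far more abundant, at 241, 142 and 566 FPKM under BBR and at 814, 592 and 1052 FPKM under SASP, and held 93.2% to 96.3% of the summed FPKM of Ifit1, Ifit1bl1 and Ifit1bl2 in every sample. The log2 fold change of Ifit1bl1 was -1.56 (SE 0.48, limma adjusted p = 0.0823), with all BBR samples below all SASP samples. It was called without BBR 3 (-2.10, adjusted p = 0.00610) and with array weights (-2.03, 0.000267). Ifit1bl2 was at 12.2, 7.37 and 14.8 FPKM under BBR and at 7.06, 6.49 and 8.39 FPKM under SASP, a log2 fold change of 0.54 (95% interval -0.03 to 1.11, limma adjusted p = 0.171) that was called as higher with array weights (0.50, 0.0135). The interval of Ifit1bl2 did not meet that of Ifit1, although both genes are read outward from the 145 bases printed above and the same 2 ISRE cores lie in the window of Ifit1 and in 1 window of Ifit1bl2. Whether their changes differed was not tested.

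No 50-base window of Ifit2, Rsad2, Bst2 or Cmpk2 was shared with another gene. For Ifitm2, 48.5% of the windows were shared, of which those with Gm45717 made up 36.1% of all windows of Ifitm2, and for Ifitm1 6.36% were shared. The sum of the 3 IFITM genes was 164 ± 49.6 FPKM under BBR and 223 ± 20.8 FPKM under SASP (SD, n = 3 each). The change of this sum was -0.47 on the log2 scale (limma adjusted p = 0.169), and it was called without BBR 3 (-0.71, 0.00699) and with array weights (-0.80, 0.000281). Ifitm5, Ifitm6, Ifitm7 and Ifitm10 lay below the filter, at no more than 1.13 FPKM in any sample.

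The interferon pathway was examined from the ligands down to the genes it drives, with lists chosen by function. Of 9 ligands listed, 8 were not analysed here. Ifng, which encodes interferon gamma, was listed at 0 in all BBR samples and at 1.19, 0.30 and 0.21 FPKM in SASP samples, too low to test. Of 9 receptor and kinase genes, 0 were called in limma (2 at an unadjusted p of at most 0.05, both higher under BBR), with a median log2 fold change of 0.21. The smallest p-values were those of Ifngr2 (0.45, adjusted p = 0.0734), Ifnlr1 (0.36, 0.129) and Ifnar1 (0.31, 0.159), each called as higher without BBR 3 (0.54, 0.46 and 0.42) and with array weights (0.60, 0.39 and 0.40). Ifngr2 was also called with quantile normalization (0.52, adjusted p = 0.0429). Of all tested genes, 33.8% were called without BBR 3, 59.0% with array weights and 14.4% with quantile normalization.

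Of 8 transcription factors of the pathway, 5 were called as lower under BBR and 0 as higher, and the median was -1.49. Stat2, a part of ISGF3, was at 11.5, 10.3 and 11.3 FPKM under BBR and at 47.3, 34.2 and 44.4 FPKM under SASP (log2 fold change -1.83, SE 0.14, limma adjusted p = 0.00187). Irf8, a factor of myeloid and lymphoid cells, changed by -2.21 (adjusted p = 0.00171), and both calls held without any 1 sample. Irf9, the DNA-binding part of ISGF3, is named outside the rule for named genes. It changed by -1.09 (adjusted p = 0.0186), a call lost without BBR 1 (0.0685) and without SASP 1, 2 or 3 (0.0837, 0.0522 and 0.0932).

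Of 4 feedback genes, 3 were called as lower, and the median was -2.98. Isg15, a ubiquitin-like modifier, was at 12.6, 5.02 and 12.4 FPKM under BBR and at 143, 64.9 and 122 FPKM under SASP (log2 fold change -3.35, limma adjusted p = 0.00891), and was not called without SASP 1 (0.0545) or SASP 3 (0.0561). Socs1, a JAK inhibitor, changed by -2.94 (adjusted p = 0.0132), not called without BBR 1 (0.0559), SASP 1 (0.0673) or SASP 3 (0.0719). Usp18, which removes ISG15 from proteins and dampens the type I receptor, changed by -3.02 (adjusted p = 0.0163), not called without BBR 1 (0.0589) or SASP 3 (0.0797).

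Among 31 other antiviral genes, 24 were called as lower and 0 as higher, and the median was -1.22. Parp9, Parp14 and Eif2ak2 had the smallest p-values, with log2 fold changes of -1.88, -2.28 and -1.10 (limma adjusted p = 0.00171, 0.00443 and 0.00558). Parp9 and Parp14, which encode ADP-ribosyltransferases of the interferon response, were called without any 1 sample, while Eif2ak2, which encodes the RNA-activated kinase PKR, was not called without SASP 3 (0.0526). Of 20 tested genes led by interferon gamma, 18 were called as lower and 0 as higher. Their median was -3.69, beside the -1.49 of the 8 genes described here. Neither the difference between these medians nor the part of any interferon was tested. Igtp, Irgm2 and Tap1 changed by -5.65, -4.08 and -3.73 (adjusted p = 0.000214, 0.000214 and 0.000468), and were called in all 6 fits that left out 1 sample. Igtp and Irgm2 are GTPases that act on vacuoles of intracellular pathogens, and Tap1 carries peptides to MHC class I. Over the 5 lists with tested genes, 50 of 72 different genes were called, all as lower.

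**Figure D5:**
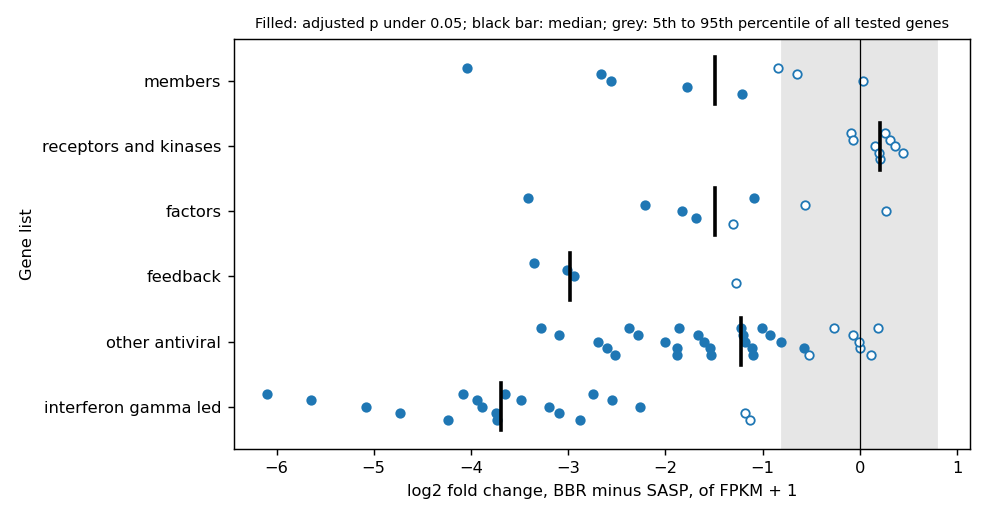
Log2 fold change of BBR against SASP for each tested gene, by list, with called genes filled, a black bar at the median and a grey band from the 5th to the 95th percentile of all tested genes. Receptors and kinases lie around 0 with a median of 0.21, and genes led by interferon gamma reach the most negative values.

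Genes with the most similar profile over the 6 samples were named by the root mean square difference of centred log2(FPKM + 1). To the mean profile of Ifit1, Ifit2, Ifit3 and Rsad2 the nearest were Trim30a (0.054), Oas2 (0.14), Xdh (0.21), Apol10b (0.21) and Ube2l6 (0.24), where the median of all tested genes was 1.43. This mean profile is not that of each gene in it, as Ifit2 and Rsad2 were at 2.80 and 0.88 in SASP 1. Trim30a was at 4.02 ± 1.16 FPKM under BBR and at 28.9 ± 9.44 FPKM under SASP (SD, n = 3 each). To the mean profile of the 3 IFITM genes the nearest were Csf3r (0.034), Serpinb1a (0.047), Amigo3 (0.072), Gm5862 (0.078) and Crem (0.079), where the median of all tested genes was 0.49. This mean is not the profile of each IFITM gene, as Ifitm1, Ifitm2 and Ifitm3 were at 0.13, -0.08 and 0.64 in SASP 1. Csf3r and Gm5862 were low, with means of 0.97 and 0.72 FPKM under BBR, where the scale used understates changes. These profiles share the 6 libraries, and no test was made on them.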

How the data were processed

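RNA was sequenced from 6 samples of colorectal tissue of mice with colitis, and groups were taken from the treatment label. The authors deposited 1 table of FPKM values per gene and sample, rounded to 2 decimals. Per the labels, reads were aligned with Bowtie2 2.2.5 and quantified with RSEM 1.2.12, and mm9 is named as the build. FPKM are not counts, so log2(FPKM + 1) was analysed with limma 3.58.1 (R 4.3.3), with a mean-variance trend and two-sided tests, after keeping genes that reached 1 FPKM in 3 or more of the 6 samples. P-values were adjusted by Benjamini-Hochberg over all 12072 genes. An exact permutation test of 3 against 3 samples cannot go below p = 0.10 and was not used. The fit was tested on simulated data. The members, lists and tests were chosen with earlier results of these data known. Named genes were the members and their relatives, up to 3 genes of the smallest p per list and the 5 of the most similar profile, and 1 gene that the rule names is not reported here. For an approximate depth, genes listed above 0 in a single sample, with transcripts under 1500 bases, were taken to hold 1 read. Depth is otherwise unknown. Alternatives covered the pseudocount, filter, scaling, weights, trend, threshold and each left-out sample.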

Additional observations from a re-analysis of the deposited data

How the results depend on the processing

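The count of called genes among the 8 was 5 and ranged from 2 to 7 when single samples were left out (2 without BBR 1, SASP 1 or SASP 3, 3 without BBR 2, 5 without SASP 2, 7 without BBR 3). The share called among all tested genes moved with it, from 0.428% to 33.8%. Under the other settings 4 (no filter) to 7 (array weights) of the 8 were called, all as lower. The share called among all tested genes was 3.33% with no filter and 59.0% with array weights. At an unadjusted p of at most 0.05 it was 31.8%. The median of the 8 genes stayed between -1.80 and -1.29 under every setting. Ifitm2 had the opposite sign with median-ratio scaling (-0.10), array weights (-0.18) and without BBR 3 (-0.10), ranged from -0.10 to 0.16 with single samples left out, and was called in 0 settings. Of the relatives, neighbours and sums, 2 of 7 were called, and 7 with array weights, 5 at an unadjusted p of at most 0.05 and 0 to 6 with single samples left out. Of the pathway genes 50 of 72 were called, all as lower, and 18 to 57 with single samples left out, where 67 were tested without a SASP sample and 72 without a BBR sample. Of these calls 6 were higher without BBR 3, and with array weights 7 of 66 were higher. Over all genes 1069 were called, 608 with no filter, 1737 with quantile normalization, 1683 with median-ratio scaling, 7126 with array weights, 3837 at an unadjusted p of at most 0.05 and 51 to 4018 with single samples left out. The split of 461 higher and 608 lower became 499 and 1184 with median-ratio scaling and 4636 and 2490 with array weights. The causes were not tested. Median-ratio scaling moved the median log2 fold change of all genes from 0.10 to -0.02. No paired analysis was possible because the replicate numbers follow accession order and pair no samples.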
